A study of Parasteatoda tepidariorum with 10 samples.

Results

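Some of the genomic regions that were accessible in every stage-3 library of the house spider *Parasteatoda tepidariorum* lay close together in dense clusters, and these clusters are described here. Members were chosen from the deposited peaks themselves. Each of the 6 stage-3 peak lists was limited to its 10616 peaks of highest signal, overlapping peaks were merged into 20289 regions, and the 4268 regions with a peak in all 6 lists were kept. Neighbours on 1 scaffold were linked when the gap from the end of 1 region to the start of the next was 10 kb or less. A run of 3 or more linked regions is called a chain. In all, 479 regions fell into 139 chains, which was 11.2% of the 4268 shared regions and 2.36% of all 20289 regions. Another 682 shared regions (16.0%) formed 341 pairs, and the remaining 3107 (72.8%) had no shared region within 10 kb and are called unchained.

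The assay was ATAC-seq, which tags open chromatin with adapters through the Tn5 transposase, and each of 5 groups of whole embryos gave 2 libraries. Wild-type embryos of the Osaka isolate, which received no double-stranded RNA, were taken at stage 1 (9 h after egg laying), stage 2 (12 h) and stage 3 (18 h). The other groups were stage-3 embryos laid by females injected with double-stranded RNA against *fuchi*, which encodes a GATA-like protein, or against *Pt-hh*, the spider *hedgehog* gene, a treatment named parental RNA interference (pRNAi). A library was a pool of 200 embryos at stages 1 and 2 and of 40 embryos at stage 3, so that a change in the share of a cell type and a change within cells cannot be told apart. The labels traced wild-type stage-3 replicate 1 and *Pt-hh* pRNAi replicate 2 to line 39, and wild-type replicate 2, both *fuchi* pRNAi libraries and *Pt-hh* pRNAi replicate 1 to line 40. Replicate 1 of stage 1 and of stage 2 came from line 39 and stage 2 replicate 2 from line 40, while stage 1 replicate 2 had a source name of another kind and no line. Line and *fuchi* pRNAi could therefore be separated only against the single wild-type library of line 40. The 10 libraries gave between 10616 and 137892 peaks, and the depth behind each list is unknown. The shortest list, that of *fuchi* pRNAi replicate 1, set the length of 10616 and was used whole, down to a signal of 200. The other stage-3 lists held 12494 to 23045 peaks and were cut at signals of 230 to 410. Peak lists hold no transcript levels, so the knockdowns themselves were not checked here.

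Open chromatin marks promoters, enhancers and other DNA that regulatory proteins can reach. In animals, genes that control development often have several such elements spread through and around the gene, and in early embryos many of them open as the genome of the embryo becomes active. GATA factors include proteins known to open closed chromatin, and Hedgehog is a secreted signal that patterns early embryos. No genome sequence or complete gene annotation of the assembly used for the peaks (Ptep_2.0) was used here, so no sequence is printed, and genes are named only where the study's supplementary lists gave their position on this assembly.

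The chains were compact. Of the 139 chains, 98 held 3 regions, 32 held 4, 3 held 5, 2 held 6, 3 held 7 and 1 held 9. They lay on 110 scaffolds, out of 576 scaffolds with a shared region. A chain spanned a median of 11993 bp, from 2299 to 37124 bp, and the accessible regions covered a median of 24.5% of that length, from 6.98% to 94.6%. The 340 gaps inside chains had a median of 3332.5 bp and a range of 96 to 9929 bp, and 61 of them (17.9%) were shorter than 1 kb. The limit of 10 kb cut through a continuous range of distances. Over all shared regions, 36 gaps fell between 9 and 10 kb and were linked, up to 9949 bp, while 37 gaps between 10 and 11 kb, from 10011 bp on, were not. A limit of 9 kb gave 441 members and a limit of 11 kb gave 509.

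Chained regions carried stronger peaks than unchained regions in each of the 6 libraries. The signal of a peak was expressed as a percentile, its rank within its own list of 10616 peaks with 100 as the highest. Because signal chose the regions, these values are a description. In the wild-type libraries the median percentile was 82.1 for chained and 73.3 for unchained regions in replicate 1, and 83.3 against 72.6 in replicate 2. The corresponding medians were 83.0 against 74.2 and 83.5 against 75.2 in the *fuchi* pRNAi libraries. They were 81.4 against 73.1 and 83.9 against 74.8 in the *Pt-hh* pRNAi libraries. The difference was 8.98 ± 0.882 percentile points (SD, n = 6 libraries) and lay between 8.26 and 10.7 points. Between 31.9% and 36.1% of chained regions ranked at or above the 90th percentile of a library, compared with 19.2% to 20.6% of unchained regions. Regions in pairs lay between these classes, with medians over regions of the mean percentile of 80.3 for chains, 72.9 for pairs and 69.9 for unchained regions.

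**Figure D1:**
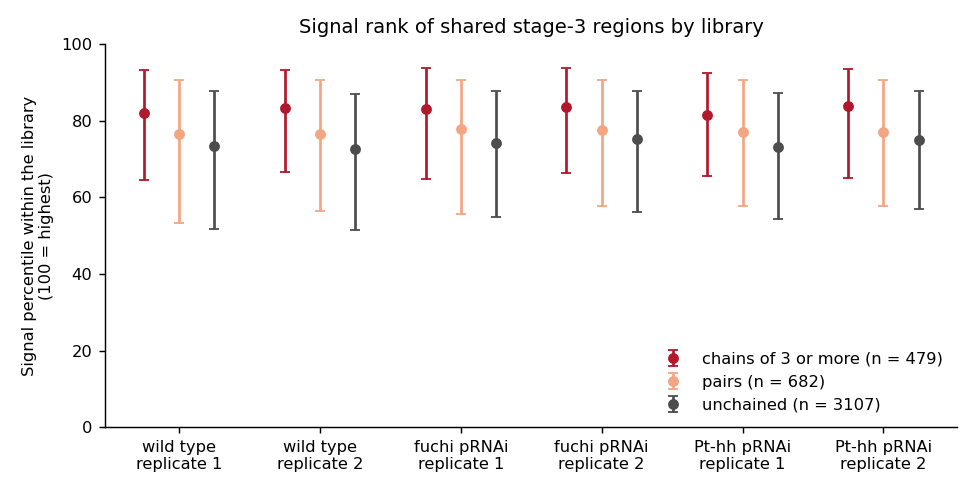
Median signal percentile (points) with the lower and upper quartile (bars) of chained, paired and unchained regions in each of the 6 stage-3 libraries, on a linear axis from 0 to 100. The chained medians of 81.4 to 83.9 lie above the unchained medians of 72.6 to 75.2 in every library, while the quartile ranges overlap widely.

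The stronger rank was not shared by all regions of a chain. Mean percentiles of the members ran from 22.7 to 99.9, and the median range inside a chain was 31.1 points. Which chain a region belonged to accounted for 5.06% of the variance of the mean percentile over members. In 88 of the 139 chains (63.3%) at least 1 region had a mean percentile above 90, but only 2 chains had all regions above it. Above that mark were 137 members (28.6%) and 451 unchained regions (14.5%). A typical chain was thus made of strong and moderate regions side by side. Over the 6 libraries the percentile of a member had a median SD of 9.05 points, against 12.5 for an unchained region, but percentiles near 100 have little room to vary. Within quintiles of the mean percentile, a comparison added after seeing the data, the median SD averaged 12.2 points for chained and 12.4 for unchained regions and was lower for chained regions in 3 of 5 quintiles. The strongest peak of each of the 10 lists lay outside the chains.

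Chained regions were slightly wider. Their median merged width was 768 bp (quartiles 597.5 and 1031 bp), compared with 717 bp (539.5 and 1013.5 bp) for unchained regions, a difference of 51 bp. Within single libraries the median width of their peaks exceeded that of the unchained by 48.2 ± 6.40 bp (SD, n = 6). The deposited signal adds up significance along a peak, so that width enters it, and this too is a description. In 47 members (9.81%) and 202 unchained regions (6.50%) some library had split the region into several peaks. Regions under 400 bp were less frequent in chains, with 27 members (5.64%) and 280 unchained regions (9.01%).

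Many chained regions already had a peak at stages 1 and 2, which the choice of members had not used. A region was counted as present where it overlapped 1 of the 10616 highest peaks of a library. At stage 1, 70.4% of chained and 58.1% of unchained regions were present in replicate 1, and 48.9% against 35.0% in replicate 2. At stage 2, the shares were 79.3% against 66.9% in replicate 1 and 67.0% against 55.6% in replicate 2. The replicates of a stage differed from each other by as much as the classes did or more, and stage 1 replicate 2, the lowest, came from the longest deposited list (137892 peaks), yet within each of the 4 libraries the chained share was the higher. The difference was 13.0 ± 1.14 percentage points at stage 1 (SD, n = 2 libraries) and 11.9 ± 0.721 points at stage 2 (SD, n = 2). Over both stages it was 12.5 ± 1.01 points and was positive in 4 of 4 libraries (exact two-sided sign-change permutation test over libraries, p = 0.125, the smallest value that 4 libraries allow). Regions in pairs gave 60.1%, 42.2%, 69.2% and 63.8% in the same order of libraries, above the unchained share in each.

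**Figure D2:**
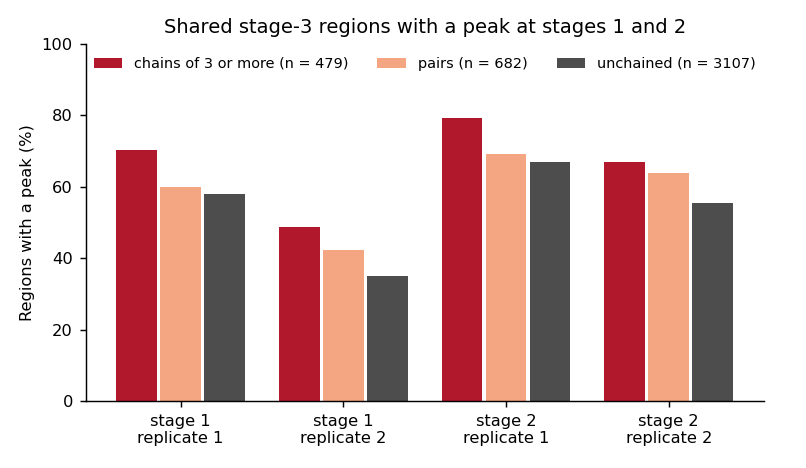
Percentage of chained, paired and unchained shared stage-3 regions (bars, from 0) that overlapped 1 of the 10616 highest peaks of each wild-type library of stages 1 and 2. The chained share is the highest in each of the 4 libraries, by 11.4 to 13.8 percentage points over the unchained share.

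Because chained regions had the higher signal at stage 3, presence was also compared among regions of like signal. Within quintiles of the mean stage-3 percentile the difference was 5.76 ± 0.653 points (SD, n = 4), and within quintiles of width it was 12.1 ± 0.950 points, each positive in all 4 libraries (exact sign-change permutation p = 0.125 for both). Among regions in the top quintile of signal, 92.8% of 153 chained and 87.0% of 540 unchained regions were present in stage 1 replicate 1, and 98.0% against 94.4% were present in stage 2 replicate 1. The chained share was the higher in 16 of the 20 combinations of quintile and library and the lower in 4. In the second quintile, stage 1 presence was 45.2% chained against 50.7% unchained in replicate 1 and 24.7% against 26.0% in replicate 2. In the third, stage 2 presence was 65.4% against 67.1% in replicate 1 and nearly equal, at 53.09% against 53.11%, in replicate 2. Merging regions less than 1 kb apart before chaining reduced the difference to 6.39 points at stage 1 and 7.85 at stage 2.

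Presence in several early libraries followed the same order. Peaks in both stage-1 libraries were found for 208 members (43.4%) and 890 unchained regions (28.6%), where the share over all 4268 regions was 31.3%. Both stage-2 libraries held 271 members (56.6%) and 1328 unchained regions (42.7%), with 45.5% over all regions. All 4 early libraries held 168 members (35.1%) and 680 unchained regions (21.9%), with 24.3% over all. No early peak was found for 30 members (6.26%) and 391 unchained regions (12.6%), with 11.5% over all. In 23 chains every region was present in all 4 early libraries, and in 61 chains no region was. Presence was highest in the 9 chains of 5 or more regions, whose 57 regions were present at 86.0% and 71.9% in the stage-1 libraries and 82.5% in each stage-2 library. Chains of 4 regions, at 66.4%, 44.5%, 80.5% and 58.6%, were close to chains of 3, at 69.0%, 46.3%, 78.2% and 67.7%, so the shares did not increase evenly with chain size. Since these 57 regions came from only 9 chains, single chains weighed heavily in their shares.

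Next, the ranks after knockdown were compared with those of the wild type. The lead of chained over unchained regions was 9.72 ± 1.35 points in the wild type (SD, n = 2). It was 8.55 ± 0.273 points in the *fuchi* pRNAi group and 8.69 ± 0.600 in the *Pt-hh* pRNAi group. By library it was 8.74 and 8.36 points after *fuchi* pRNAi, against 8.77 and 10.7 in the wild type. The groups were thus apart only by the narrow distance between 8.74 and 8.77. The change of that lead was -1.17 points after *fuchi* pRNAi (exact two-sided permutation test, p = 0.333, the smallest that 2 against 2 libraries allow). Its sign was not stable, since the change was positive with all deposited peaks, with lists of 5308 peaks, with peaks ranked by p-value and with a gap of 5 kb. For *Pt-hh* pRNAi the change was -1.04 points and the libraries overlapped (exact permutation p = 0.667). It stayed negative under every alternative tried, but its size was not stable. It was -3.79 points with all deposited peaks (exact permutation p = 0.333, again the smallest possible) and -2.11 with peaks ranked by p-value. It was only -0.172 points with a gap of 5 kb, -0.217 with regions under 1 kb apart merged and -0.240 on scaffolds past 1 Mb. Both comparisons used the same wild-type libraries. With 2 libraries against 2 neither test could pass a threshold of 0.05, so these values show neither a change nor its absence. Every member had a peak in all 6 lists by the rule, which leaves out any region that a knockdown removed.

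Single members shifted about as much as unchained regions of like rank. Over all ranks the median of the absolute shift of the group mean percentile was 6.52 points for chained and 9.19 for unchained regions after *fuchi* pRNAi, and 4.36 against 6.71 points after *Pt-hh* pRNAi. Within quintiles of the mean percentile, also added after seeing the data, it averaged 11.0 against 10.3 points for *fuchi* pRNAi and 7.75 against 7.95 points for *Pt-hh* pRNAi. The smaller shift of members over all ranks thus went with their higher rank. The signed medians were near 0 for members, at 0.188 and -0.0188 points, and were 1.06 and 1.18 points for unchained regions. Both *fuchi* pRNAi percentiles lay below both wild-type percentiles in 89 members (18.6%), where 16.0% of all 4268 regions did so. They lay above both in 105 members (21.9%), with 22.7% over all regions. Both *Pt-hh* pRNAi percentiles were lower in 61 members (12.7%, with 12.0% over all) and higher in 72 members (15.0%, with 19.9% over all). These shares were near those of all shared regions, apart from the share higher after *Pt-hh* pRNAi, which was below it. With signals on the log2 scale, centred within each library, the *Pt-hh* pRNAi shares were 18.0% lower and 11.7% higher, with 15.3% and 17.4% over all regions. With all deposited peaks they were 6.13% lower and 27.2% higher, with 4.80% and 32.6% over all regions. In each of these settings the share of members higher after *Pt-hh* pRNAi was below that over all regions. That share was not compared among regions of like rank, although members ranked higher than other regions.

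Regions of a chain tended to shift in the same direction, but the 2 replicates of a group differed in the same way. Among the 340 neighbouring pairs inside chains, 64.4% shifted the same way between *fuchi* pRNAi and wild type and 62.1% between *Pt-hh* pRNAi and wild type, where unrelated neighbours would give 50.2% and 50.02%. The difference between the replicates had the same sign in 66.2% of neighbours in the wild type, 63.2% in *fuchi* pRNAi and 67.6% in *Pt-hh* pRNAi. Thus neighbours were as alike in replicate differences as in knockdown shifts. The share of variance that lay between chains was 23.4% for *fuchi* pRNAi and 21.2% for *Pt-hh* pRNAi, and it was 26.6%, 21.8% and 25.3% for the replicate differences in the same order of groups. On group means all regions were on the higher side in 34 chains and on the lower side in 23 after *fuchi* pRNAi, compared with 35 and 24 between the wild-type replicates. For *Pt-hh* pRNAi these counts were 25 and 23.

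Over all shared regions the likeness of neighbours declined with the gap between them. For *fuchi* pRNAi minus wild type, 70.7% of 116 neighbours up to 1 kb apart shifted the same way, and 67.8% of 177 at 1 to 3 kb. The share was 59.3% of 388 at 3 to 10 kb, 58.2% of 588 at 10 to 30 kb and 53.8% of 1648 beyond 100 kb. The wild-type replicate difference gave 75.9%, 62.7%, 63.7%, 61.4% and 52.4% for the same gaps. The decline was uneven. The *fuchi* pRNAi replicate difference, for example, gave 76.7% up to 1 kb, 56.5% at 1 to 3 kb, 58.8% at 3 to 10 kb and 59.4% at 10 to 30 kb. None of the comparisons showed a marked fall across 10 kb.

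**Figure D3:**
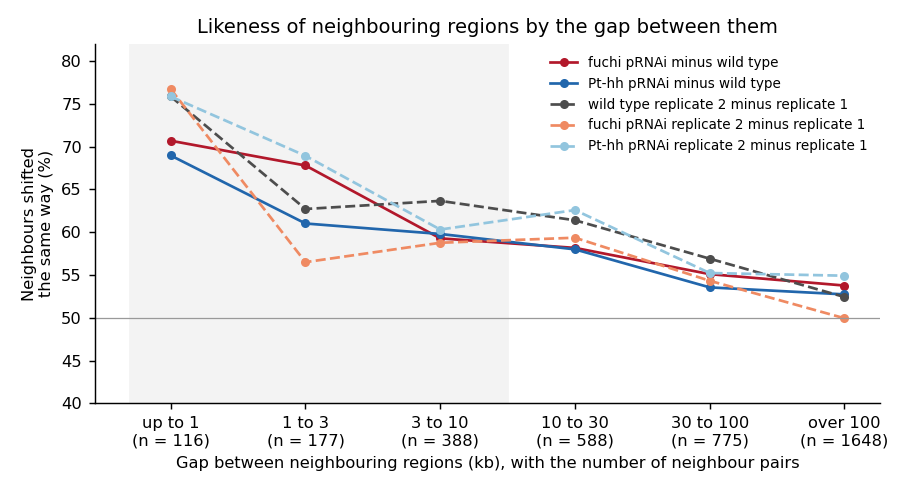
Percentage of neighbouring shared regions that shifted in the same direction, by the gap between them, for the knockdown shifts (solid lines) and the replicate differences (dashed lines), with a vertical axis from 40 to 82%, the gaps that link a chain shaded and a line at 50%. All 5 lines fall from 69.0 to 76.7% at gaps up to 1 kb to 49.9 to 54.9% beyond 100 kb.

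The largest chain held 9 regions in 14503 bp at NW_018373501.1:42508-57010, with 57.5% of the span accessible. Its mean percentile was 71.2 and 90.5 in the wild type, 79.6 and 81.6 after *fuchi* pRNAi and 64.8 and 75.8 after *Pt-hh* pRNAi. The shift of the group mean after *Pt-hh* pRNAi was -10.6 points, and all 9 regions were on the lower side. The groups overlapped, since the wild-type replicates differed by more than this shift, and only 1 region had both *Pt-hh* pRNAi values below both wild-type values. Its strongest region, NW_018373501.1:53132-54883, had percentiles of 99.4 and 99.6 in the wild type, 99.4 and 99.3 after *fuchi* pRNAi and 99.2 and 99.7 after *Pt-hh* pRNAi. Its weakest, NW_018373501.1:46731-47332, had 26.9, 79.7, 44.4, 29.2, 30.4 and 43.5 in the same order and stood out only in wild-type replicate 2. In the early libraries 6 of the 9 regions had a peak in all 4.

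Of the 3 chains with 7 regions, NW_018370444.1:306286-328006 ranked higher after *fuchi* pRNAi. Its mean percentiles were 48.5 and 75.02 in the wild type, 82.8 and 79.9 after *fuchi* pRNAi and 57.8 and 75.3 after *Pt-hh* pRNAi. The shift of the group mean was 19.6 points, all 7 regions were on the higher side and in 6 both *fuchi* pRNAi values exceeded both wild-type values. The 3 strong regions of the chain, with mean percentiles of 97.4, 96.5 and 92.4, moved by 1.56, 1.62 and 5.10 points. The other 4, of moderate rank, moved by 25.1 to 39.2 points. In NW_018370444.1:322495-322931, for example, the percentile was 7.42 and 55.6 in the wild type, 68.3 and 73.1 after *fuchi* pRNAi and 22.9 and 41.7 after *Pt-hh* pRNAi. Much of the shift came from the low values of wild-type replicate 1, the library of line 39. Against wild-type replicate 2 alone the chain means of the *fuchi* pRNAi libraries, all of line 40, were 82.8 and 79.9 compared with 75.02.

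The chain NW_018382158.1:784310-813594 consisted of narrow regions. Its 7 regions were 185 to 470 bp wide, with a median of 255 bp, and covered 6.98% of 29285 bp, the lowest coverage of any chain. All 7 were present in all 4 libraries of stages 1 and 2. The mean percentile was 77.8 and 91.2 in the wild type, 92.5 and 93.5 after *fuchi* pRNAi and 78.4 and 80.0 after *Pt-hh* pRNAi. All 7 regions were on the higher side after *fuchi* pRNAi by a mean of 8.48 points, with 6 above both wild-type values. All 7 were on the lower side after *Pt-hh* pRNAi, at a mean shift of -5.33 points, but none lay below both wild-type values, because wild-type replicate 1 was as low as the *Pt-hh* pRNAi libraries. Only 1 other chain, NW_018369216.1:28315-42536 with 3 regions, had every region under 500 bp. It too had all 3 regions in all 4 early libraries, and its mean percentiles were 39.9 and 70.8 in the wild type, 80.4 and 67.3 after *fuchi* pRNAi and 38.2 and 56.0 after *Pt-hh* pRNAi. It was named after its values were seen.

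The longest chain was the remaining one of 7 regions, NW_018376604.1:653461-690584, which spanned 37124 bp. Its mean percentile was 87.6 and 94.2 in the wild type, 65.7 and 94.9 after *fuchi* pRNAi and 94.8 and 82.5 after *Pt-hh* pRNAi. In 2 of the 7 regions both *fuchi* pRNAi values lay below both wild-type values. In the chain mean, however, the shift of -10.6 points after *fuchi* pRNAi came from replicate 1 alone. In that library NW_018376604.1:671731-674183 stood at 12.1, against 98.8 and 99.2 in the wild type and 99.1 in the other *fuchi* pRNAi library. In NW_018376604.1:659355-662043, which some library had split into 3 peaks, it stood at 43.9 against 92.4 to 99.8 in the others, while the region between them, NW_018376604.1:668818-670703, was at 96.1. Only 2 of the 7 regions had a peak in all 4 early libraries.

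**Figure D4:**
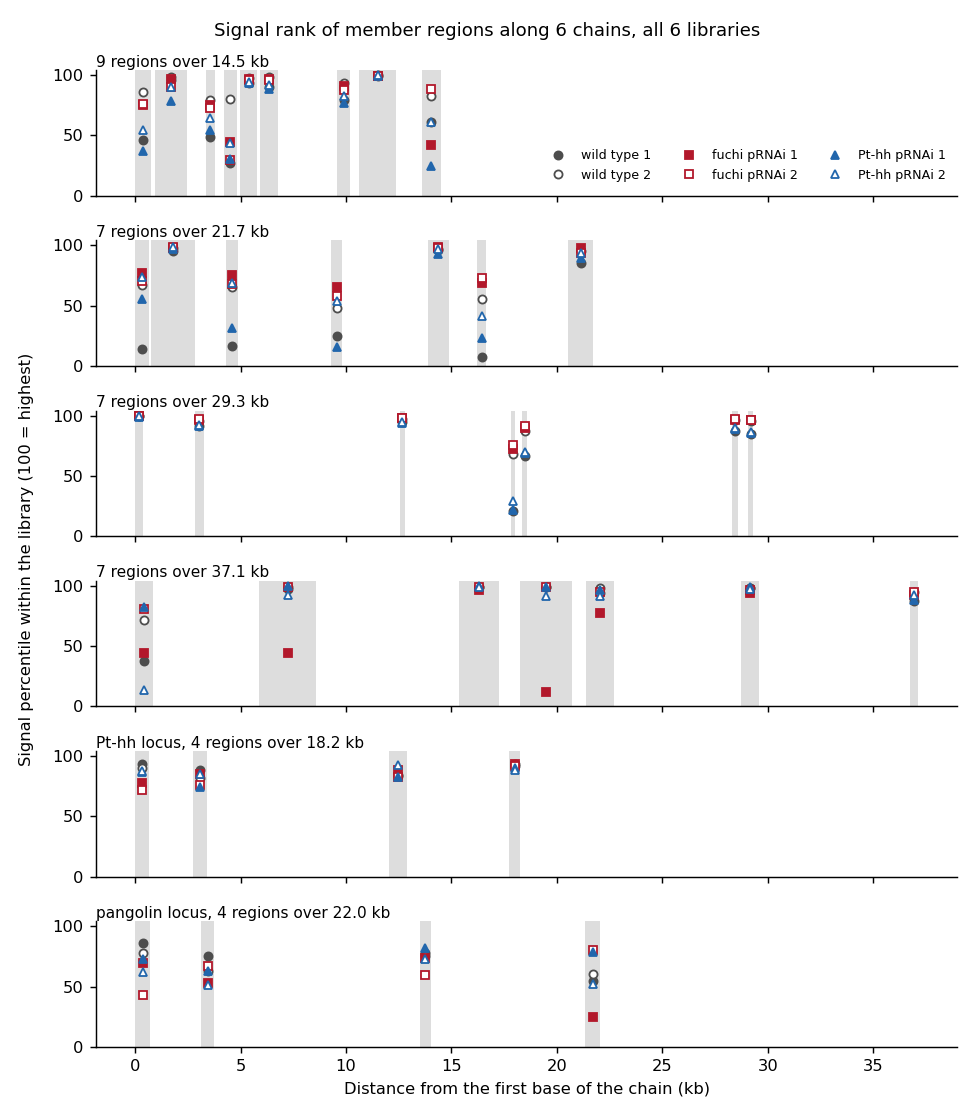
Signal percentile of each member (vertical axis, 0 to 100 being the range of percentiles) at its distance from the first base of the chain (horizontal axis, kb), for the 4 largest chains, the *Pt-hh* locus and 1 of the 2 chains of the *pangolin* locus. Filled and open symbols are replicates 1 and 2 and grey bands are the accessible regions. Strong regions stay near the top, apart from *fuchi* pRNAi replicate 1 in the fourth panel, while moderate regions spread widely, as from 7.42 to 73.1 in the sixth region of the second panel.

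Among the next largest chains, NW_018380730.1:489425-506850 lay on the same scaffold as the *Pt-hh* chain described below and held 6 regions, 5 of them in all 4 early libraries. Its mean percentile was 69.7 in wild-type replicate 1 and between 84.5 and 94.5 in the other 5 libraries. It ranked higher in both knockdowns, by 11.4 and 10.9 points, largely through that single library. Both knockdown values exceeded both wild-type values in 3 of the 6 regions after *fuchi* pRNAi and in 2 after *Pt-hh* pRNAi. Its strongest region, NW_018380730.1:490650-493530, was 2881 bp wide and never ranked below 99.6. The chain NW_018372773.1:262433-282288, also of 6 regions, had chain means of 78.7 and 74.2 in the wild type, 81.3 and 75.5 after *fuchi* pRNAi and 79.0 and 80.5 after *Pt-hh* pRNAi. Its strongest region, NW_018372773.1:267208-267966, had a mean percentile of 94.6.

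The 3 chains of 5 regions differed from each other. In NW_018383888.1:1191343-1201763 no region was present in all 4 early libraries, and the mean percentile was 52.0 and 61.8 in the wild type, 75.5 and 73.3 after *fuchi* pRNAi and 53.1 and 80.8 after *Pt-hh* pRNAi. In NW_018369779.1:21429-41549 all 5 regions were present in all 4. Its means were 92.4 and 88.1, then 88.6 and 75.4, then 85.0 and 80.1 in the same order, with all 5 regions on the lower side after *fuchi* pRNAi at a mean shift of -8.19 points, although the chain means of the groups overlapped. In NW_018383341.1:2345957-2375470 a single region carried the shift of 11.4 points after *fuchi* pRNAi. That region, NW_018383341.1:2347367-2348164, had percentiles of 39.1 and 11.0 in the wild type, 91.3 and 89.0 after *fuchi* pRNAi and 25.9 and 83.8 after *Pt-hh* pRNAi, a shift of 65.1 points after *fuchi* pRNAi. The last region of the same chain, NW_018383341.1:2374607-2375470, went from 91.7 and 72.6 to 67.2 and 65.9. Within 1 chain these 2 regions therefore moved in opposite directions with no overlap of the groups. The tenth chain by size, NW_018378875.1:6762479-6769101 with 4 regions in 6623 bp, had means of 79.0 and 77.3 in the wild type, 74.6 and 75.8 after *fuchi* pRNAi and 62.8 and 72.6 after *Pt-hh* pRNAi.

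The chains of most negative mean *fuchi* pRNAi shift mostly rested on 1 library. In NW_018371535.1:1440021-1451411 the mean percentile was 84.5 and 92.9 in the wild type, but 29.996 and 82.6 after *fuchi* pRNAi and 88.7 and 79.7 after *Pt-hh* pRNAi. In NW_018367957.1:1866538-1880854 it was 69.3 and 57.0, then 18.4 and 61.5, then 51.2 and 66.0. Replicate 1 of *fuchi* pRNAi alone was low in both chains. In NW_018370650.1:217527-225730, in contrast, both *fuchi* pRNAi libraries were low, at 47.0 and 49.3, against 71.5 and 88.3 in the wild type and 84.8 and 82.5 after *Pt-hh* pRNAi. Of its 3 regions 2 had both *fuchi* pRNAi values below both wild-type values. One of them, NW_018370650.1:221028-221987, went from 84.8 and 89.0 to 61.3 and 59.0, and stood at 91.6 and 91.7 after *Pt-hh* pRNAi. In none of these 3 chains was any region present in all 4 early libraries.

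The chains of most positive shift leaned on low wild-type values. NW_018376370.1:232068-238318 had means of 36.4 and 83.9 in the wild type, 86.3 and 83.6 after *fuchi* pRNAi and 72.9 and 71.8 after *Pt-hh* pRNAi. Its shift of 24.8 points after *fuchi* pRNAi was thus set by 1 wild-type library. NW_018378225.1:3451587-3462814 had 60.1 and 29.6, then 62.6 and 74.6, then 55.9 and 65.3, a shift of 23.8 points after *fuchi* pRNAi. Both chains were also on the higher side after *Pt-hh* pRNAi, by 12.2 and 15.8 points, with all 3 regions of each. The third was the chain of 7 regions at NW_018370444.1:306286-328006. Counted over the 139 whole chains, every region lay above both wild-type values after *fuchi* pRNAi in 3 chains and below both in 1. For *Pt-hh* pRNAi these counts were 1 and 2. Of all 4268 shared regions, 22.7% lay above and 16.0% below after *fuchi* pRNAi, and 19.9% and 12.0% after *Pt-hh* pRNAi. With 98 chains of only 3 regions and neighbours alike even between replicates, so few whole chains say little. The 1 chain wholly lower after *fuchi* pRNAi, NW_018373864.1:4287210-4303074, was named after its values were seen. Its chain means were 86.8 and 87.3 in the wild type, 79.9 and 85.0 after *fuchi* pRNAi and 92.3 and 91.3 after *Pt-hh* pRNAi. The higher *Pt-hh* pRNAi mean came from 1 region, which shifted by 16.6 points. In the other 2 regions both *Pt-hh* pRNAi values lay below both wild-type values.

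A last set of 3 chains stood for strong and early accessible clusters, chosen as the highest in mean percentile among the 7 chains of 4 or more regions that were complete in all 4 early libraries. NW_018376450.1:2139585-2151577 had 4 regions and means of 96.0 and 95.1 in the wild type, 97.9 and 96.8 after *fuchi* pRNAi and 89.7 and 94.1 after *Pt-hh* pRNAi. NW_018380711.1:51927-66469 had 4 regions and means of 85.8 and 92.8, then 90.02 and 95.4, then 80.2 and 86.4. The third was the chain of narrow regions at NW_018382158.1:784310-813594. In all 3 every region was on the lower side after *Pt-hh* pRNAi by its group mean, with mean shifts of -3.62, -6.003 and -5.33 points, and only the first kept its groups apart.

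Genes could be placed under the chains only in part. The study's supplementary lists gave the position of 232 genes on the assembly of the peaks, each listed because it was the gene nearest to a peak that the study had called different, so that neither their number nor their direction is independent of the knockdowns. Of these, 11 genes contained, at least in part, 36 member regions from 12 chains, and all 11 are given here. Naming every such gene was decided after the values were seen.

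The *Pt-hh* gene (LOC107451809, annotated as sonic hedgehog protein-like), which encodes the secreted signal itself, contained all 4 regions of NW_018380730.1:69410-87653. The mean percentile of the chain was 89.7 and 86.9 in the wild type, 86.1 and 80.5 after *fuchi* pRNAi and 83.3 and 88.6 after *Pt-hh* pRNAi. Only the first region, NW_018380730.1:69410-70094, kept the *fuchi* pRNAi libraries well apart, with 93.7 and 89.8 in the wild type, 77.8 and 71.4 after *fuchi* pRNAi and 86.4 and 87.8 after *Pt-hh* pRNAi. At the other end, NW_018380730.1:87143-87653 had 93.4, 91.7, 93.2, 91.9, 89.9 and 88.5 in the same order, and it was the only region of the 4 present in all 4 early libraries. The first region had a peak in 1 early library only, stage 2 replicate 1.

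A patched-like gene (LOC107440240), whose *Drosophila* counterpart is the Hedgehog receptor, contained 3 of the 4 regions of NW_018382990.1:1231151-1245505. The chain means were 71.3 and 63.4 in the wild type, 65.3 and 59.1 after *fuchi* pRNAi and 71.5 and 72.0 after *Pt-hh* pRNAi, and those of the wild type and *fuchi* pRNAi overlapped. A single region, NW_018382990.1:1238750-1239579, was at 84.6 and 74.0 in the wild type, 47.7 and 61.7 after *fuchi* pRNAi and 81.9 and 80.4 after *Pt-hh* pRNAi. As at *Pt-hh*, a single region of the chain shifted by over 10 points after *fuchi* pRNAi while its neighbours moved by less.

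The *pangolin* gene (LOC107450033), named after the *Drosophila* TCF protein that carries the Wnt signal to its target genes, contained 2 chains of 4 regions each. In NW_018371019.1:10475247-10497286 the means were 73.5 and 69.0 in the wild type, 55.0 and 62.4 after *fuchi* pRNAi and 74.2 and 59.6 after *Pt-hh* pRNAi. In NW_018371019.1:10566313-10583131 they were 83.0 and 86.1, then 71.9 and 83.2, then 94.4 and 87.4. All 8 regions were on the lower side after *fuchi* pRNAi by group mean, with chain shifts of -12.5 and -6.95 points. The chain means of wild type and *fuchi* pRNAi stayed apart only for the first chain. Its first region, NW_018371019.1:10475247-10475973, went from 86.4 and 77.7 to 69.5 and 43.1, with 73.2 and 62.0 after *Pt-hh* pRNAi. In the second chain both *Pt-hh* pRNAi means lay above both wild-type means. Its shift there was 6.37 points, with all 4 regions on the higher side by group mean and 1 above both wild-type values. None of the 8 regions had a peak in all 4 early libraries.

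A tiptop-like gene (LOC107441771), related to a *Drosophila* zinc finger protein, contained all 3 regions of NW_018373717.1:2568230-2574577. The chain means were 73.3 and 73.8 in the wild type, 55.2 and 64.1 after *fuchi* pRNAi and 77.1 and 79.6 after *Pt-hh* pRNAi. Here too 1 region carried most of the difference. NW_018373717.1:2568230-2568759 was at 42.0 and 54.1 in the wild type, 12.3 and 17.7 after *fuchi* pRNAi and 55.1 and 59.1 after *Pt-hh* pRNAi, a shift of -33.1 points after *fuchi* pRNAi, and it had a peak in none of the early libraries. The other 2 regions moved by -3.28 and -5.28 points.

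The Psc-like gene (LOC107444248), related to a Polycomb group protein that keeps genes silent in *Drosophila*, contained the 4 regions of NW_018367643.1:267902-280011. Its means were 90.01 and 86.9 in the wild type, 86.2 and 72.9 after *fuchi* pRNAi and 90.8 and 76.4 after *Pt-hh* pRNAi. Replicate 2 of both knockdowns was low. Both *fuchi* pRNAi means lay below both wild-type means, replicate 1 only narrowly, while the *Pt-hh* pRNAi means overlapped the wild type. In 2 of the 4 regions both *fuchi* pRNAi values lay below both wild-type values. The homeobox gene *Meis2* (LOC107439560) contained the 4 regions of NW_018376796.1:5128147-5153603, and its means of 89.6 and 83.8, then 89.5 and 87.4, then 90.1 and 83.2 overlapped in every comparison. The adhesion G protein-coupled receptor L1-like gene (LOC107437002) contained the 3 regions of NW_018369794.1:3765110-3772453, with means of 82.1 and 73.0, then 71.7 and 83.8, then 80.0 and 83.0. These last 2 genes held chains without a shift beyond the replicates.

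Of the RNA-processing genes, polypyrimidine tract-binding protein 1 (LOC107453795), a splicing regulator, contained 2 of 3 regions of NW_018378926.1:1434393-1455810, with means of 84.5 and 78.1 in the wild type, 70.4 and 88.5 after *fuchi* pRNAi and 88.7 and 80.5 after *Pt-hh* pRNAi. Serine/arginine-rich splicing factor 5 (LOC107453793) contained 2 of 3 regions of NW_018378926.1:3286319-3299920, on the same scaffold, with means of 61.8 and 73.5, then 37.3 and 77.0, then 67.6 and 51.1. The groups overlapped in both genes. In both, *fuchi* pRNAi replicate 1 was the lowest of the 6 libraries.

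The remaining 2 genes are uncharacterized. LOC110282818 contained 2 of the 4 regions of NW_018378030.1:623374-633497, where the means were 76.7 and 74.6 in the wild type, 87.1 and 87.3 after *fuchi* pRNAi and 71.8 and 54.0 after *Pt-hh* pRNAi, apart in both comparisons and in opposite directions. In this chain the region NW_018378030.1:625875-626838 went from 44.5 and 45.9 in the wild type to 80.1 and 77.5 after *fuchi* pRNAi. After *Pt-hh* pRNAi it was at 49.8 and 17.6. LOC107441838 contained 1 of the 3 regions of NW_018377224.1:3124726-3139813, with means of 71.4 and 51.7, then 60.0 and 53.4, then 84.0 and 73.4, so that both *Pt-hh* pRNAi libraries lay above both wild-type libraries.

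**Figure D5:**
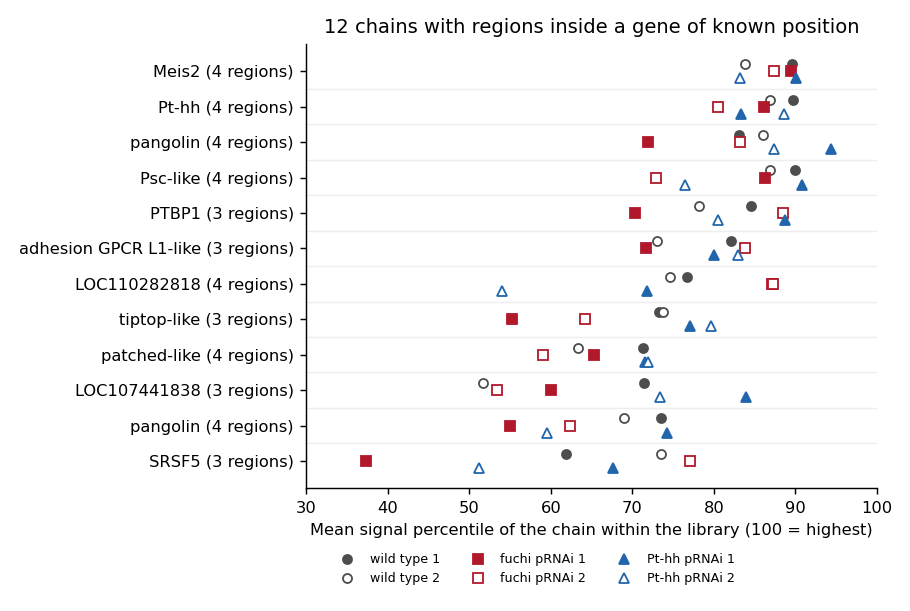
Mean signal percentile in each of the 6 stage-3 libraries (horizontal axis, drawn from 30 to 100) of the 12 chains with regions inside 1 of the 11 genes of known position, ordered by mean percentile, with replicates 1 filled and replicates 2 open. The *fuchi* pRNAi libraries lie apart below the wild type for tiptop-like, among others (55.2 and 64.1 against 73.3 and 73.8) and the lower *pangolin* chain, and apart above it for LOC110282818, while Meis2 overlaps throughout.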

How the data were processed

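Per the study's methods and labels, the authors trimmed reads with Trim Galore, aligned them to Ptep_2.0 with Bowtie2 2.2.5, kept alignments of mapping quality 30 or more, removed duplicates with Picard and called peaks with Genrich 0.6 in each library separately, without a control library. The signal deposited for each peak is the caller's area of significance, and the deposited −log10 p-value was taken at its summit. The third deposited value used, in bp from the peak start, is the summit position given by the authors. None of these is scaled between libraries, so signals were used only as ranks within lists of 10616 peaks, which removes any general gain or loss of peaks. Depth is unknown, and no counting interval is given.

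Peaks overlapping by 1 bp or more were merged. A region took the highest percentile of its peaks in a library. Shifts are differences between group means of percentiles. Classes were compared over libraries by exact two-sided permutation (2 against 2) or sign-change tests, never over regions, with Python 3.11.15, pandas 2.3.3 and numpy 2.4.6. Replicates are separate samples per the labels, and nothing states that they came from separate egg sacs. The procedure was tested on simulated lists. Named chains were the 10 with most regions, the 3 lowest and 3 highest in mean *fuchi* pRNAi shift, and the 3 of 4 or more regions with the highest mean percentile among those present in every early library; other chains named are marked. Alternatives were other list lengths, rankings, overlap rules, gaps, chain sizes, lines and left-out libraries, and, chosen after seeing the data, log2 signals, summed split peaks and shifts within quintiles of rank. Members and lists were chosen with earlier results of these data known. Sequences, the authors' fold changes and p-values of the supplementary lists, and coordinates of another assembly were not used.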

Additional observations from a re-analysis of the deposited data

How the results depend on the processing

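Chaining was by distance and rank, so the number of members moved with both, to 751 with all deposited peaks, 161 with lists of 5308 peaks, 228 and 823 with gaps of 5 and 20 kb and 57 for chains of 5 or more. The lead in signal percentile was 7.79 points with all peaks, 10.4 with lists of 5308 peaks, 6.98 with a gap of 20 kb, 15.0 for chains of 5 or more, 15.5 by rank among the regions of all lists, 7.11 with regions under 1 kb apart merged and 7.99 on scaffolds past 1 Mb. The lead in width was 33 bp with lists of 5308 peaks, 28 bp at 20 kb and 65 bp for chains of 5 or more. The change of the lead after *fuchi* pRNAi turned positive with all peaks (0.908 points), a gap of 5 kb (0.601), lists of 5308 peaks (3.14) and peaks ranked by p-value (0.198). The share of members higher after *fuchi* pRNAi was 15.2% with all peaks (13.8% over all shared regions) and 16.3% by p-value (17.5%). For *Pt-hh* pRNAi the shares were 27.2% higher and 6.13% lower with all peaks (32.6% and 4.80% over all shared regions), and 11.7% higher and 18.0% lower on the log2 scale (17.4% and 15.3%). The change of the lead after *Pt-hh* pRNAi stayed negative, from -0.172 points with a gap of 5 kb to -3.79 points with all peaks. The causes were not tested. Early presence stayed higher in chains under every alternative tried, though by only 7.72 and 6.48 points at stages 1 and 2 with all deposited peaks of those stages, 7.31 and 8.54 on scaffolds past 1 Mb and 6.64 and 8.18 at 20 kb.

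With each library left out in turn, members numbered 499 to 619, the lead in percentile was 8.98 to 10.0 points, that in width 34 to 72 bp, and presence differed by 10.6 to 14.0 points at stage 1 and 9.87 to 12.6 at stage 2. The change of the lead stayed negative, from -2.37 to -1.08 after *fuchi* pRNAi and from -2.29 to -0.975 after *Pt-hh* pRNAi. The shares lower and higher were 17.9 to 36.4% and 21.6 to 38.3% for *fuchi* pRNAi, and 12.8 to 40.9% and 15.2 to 33.9% for *Pt-hh* pRNAi. They were larger where an arm kept 1 library, which by construction makes non-overlap easier. Same-sign neighbours for *fuchi* pRNAi ranged from 63.6 to 68.5%.

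With the replicate number as a block, the changes were the same values, -1.17 and -1.04 points, with an exact sign-change permutation p of 0.5 each, the smallest that 2 pairs allow. The numbers did not pair the samples, as the correlation of same-numbered deviations over members was 0.0541 for wild type with *fuchi* pRNAi, 0.123 for wild type with *Pt-hh* pRNAi and -0.166 for the knockdowns. With line 40 alone the *fuchi* pRNAi change was -2.12 points, against 1 wild-type library, so no p-value is given. The wild type and *Pt-hh* pRNAi each had 1 library of either line and could be paired within lines. The mean change was again -1.04 points, but its sign differed between the lines. In line 40 the lead was 8.26 points after *Pt-hh* pRNAi, against 10.7 in the wild type. In the other line it was 9.11 points after *Pt-hh* pRNAi, against 8.77 in the wild type.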
